A study of Mus musculus with 12 samples.

Results

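The Hox genes encode homeodomain transcription factors and lie in 4 clusters, HoxA to HoxD, on different chromosomes. The 38 members described here, of 21938 protein-coding genes, were listed by name from the GENCODE annotation of the mm10 genome. They comprise 10 genes of HoxA, 10 of HoxB, 9 of HoxC and 9 of HoxD. A member's promoter is the annotated 5′ end of the gene plus and minus 1000 bp, and a cluster's span runs from the first to the last base of its listed genes.

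Chromatin accessibility was measured by ATAC-seq, in which a transposase cuts and tags open DNA, in B16F10, a mouse melanoma line, and in 4T1, a mouse mammary carcinoma line. Each line had 3 control and 3 DAC libraries, 12 in all. The labels give no treatment for the controls, while DAC (decitabine, a cytidine analogue that depletes DNA methyltransferases) was given for 48 h at 1 µM to 4T1 and at 0.1 µM to B16F10. Dead cells were taken out with beads before transposition, so the libraries describe cells alive after the treatment. Dose and line change together, and a difference between the lines cannot be told apart from a difference between the doses. Nothing in the labels says that the replicates came from separate cultures, and p-values cover the spread among the libraries alone, and that spread may be technical.

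As background, genes of a Hox cluster are turned on along the body axis in the order in which they lie on the chromosome, and genes at the same position in different clusters, called paralogues and sharing a number, have related roles. In cells that do not use them the clusters are typically held by Polycomb repressors, and their many CpG islands often gain DNA methylation in tumours. A Polycomb-held or methylated promoter is usually less open to a transposase than an active one.

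Sequences at 4 of the regions of the clusters that all 3 DAC libraries and no control of a line called are shown first, because their CpG content is taken up below. Each is 120 bases of the forward strand of mm10, read from the GRCm38.p6 assembly, centred on the median summit of the 3 DAC peaks. The regions are among those of highest rank that lie outside UTR exons, and capitals mark each CpG. The numbers of CpGs, in the order shown, are 14, 20, 5 and 9.
Coding sequence of Hoxb9, chr11:96271718-96271837: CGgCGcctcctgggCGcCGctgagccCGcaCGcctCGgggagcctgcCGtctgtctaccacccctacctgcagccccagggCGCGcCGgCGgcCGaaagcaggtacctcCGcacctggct
Coding sequence of Hoxc9, chr15:102981950-102982069: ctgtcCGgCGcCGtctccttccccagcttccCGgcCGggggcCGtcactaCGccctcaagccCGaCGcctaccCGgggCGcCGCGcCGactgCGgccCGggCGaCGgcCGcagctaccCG
Between genes beyond Hoxc12, chr15:102943368-102943487: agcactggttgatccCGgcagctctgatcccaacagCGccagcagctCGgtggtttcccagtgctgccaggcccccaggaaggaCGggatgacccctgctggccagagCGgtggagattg
Exon of Gm53, B16F10, chr11:96261653-96261772: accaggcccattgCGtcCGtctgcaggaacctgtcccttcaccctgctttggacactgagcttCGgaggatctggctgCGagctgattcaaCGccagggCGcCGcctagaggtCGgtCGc

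The sequences inside Hoxb9 and Hoxc9 are coding and dense in CpGs, whereas the one beyond Hoxc12 holds 5.

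A library called a promoter when at least 1 of its peaks overlapped the window by 1 bp or more. Peak lists held 89780 to 94229 peaks on the 21 chromosomes in 4T1 controls and 108083 to 118603 in 4T1 DAC libraries, against 49622 to 53316 and 54032 to 58468 in B16F10. The read density of the background against which peaks were called, recovered from each peak's fold enrichment and p-value, was 4.19 ± 0.216 in 4T1 controls, 5.89 ± 0.61 in 4T1 DAC libraries, 1.75 ± 0.0757 in B16F10 controls and 1.75 ± 0.218 in B16F10 DAC libraries (SD, n = 3). Depth therefore moved with treatment in 4T1 and with line, and the part of depth in the results below was not tested beyond the equal-number lists described with them. The lines matched their labels at marker promoters: 8 of 8 mammary epithelial markers were called in all 6 4T1 libraries and 1 of 8 in all 6 of B16F10, whereas 7 of 8 melanocyte markers were called in all 6 B16F10 libraries and 2 of 8 in all 6 of 4T1. Tyr, which encodes the pigment enzyme tyrosinase, had no promoter peak in any library. In bulk cells a peak gained by a larger share of cells and one gained by wider opening in each cell cannot be told apart.

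In 4T1 cells the number of Hox promoters with a peak was higher in every DAC library than in every control. The 3 controls called 12, 13 and 13 of the 38 promoters and the 3 DAC libraries 26, 25 and 25. Promoters called in 3 of 3 libraries numbered 12 in controls (31.6% of the members, against 55.5% of all genes) and 24 after DAC (63.2%, against 59.3%). Of the members, 11 were called in all 3 DAC libraries and in no control, termed DAC-only below (28.9%, against 4.22% of all genes), and none was control-only, the reverse (background 0.419%). The 11 were Hoxa11, Hoxb7, Hoxb9, Hoxc5, Hoxc10, Hoxc13, Hoxd1, Hoxd8, Hoxd9, Hoxd10 and Hoxd13. Another 12 were called in all 6 libraries, 10 in none, and 5 in some.

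The new calls were uneven over the clusters and the paralogue groups. HoxD had 5 of 9 members that were DAC-only, HoxC 3 of 9, HoxB 2 of 10 and HoxA 1 of 10. HoxA was already open in 4T1 controls, with 9 of its 10 members called in all 6 libraries. By position, 7 of the 16 members of paralogue groups 9 to 13 were DAC-only, compared with 3 of 11 in groups 5 to 8 and 1 of 11 in groups 1 to 4. Members called in all 6 libraries, which could not be newly called, numbered 3, 4 and 5 in the same order. Hoxc5 and Hoxc10 were called by 1 shared peak, which thus counts in groups 5 to 8 and 9 to 13. The strength of a peak is given below as a percentile, the rank of its −log10 q among the peaks of the same list, where 100 is the strongest peak. Such ranks describe a peak in its list and do not measure a change between lists.

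**Figure D1:**
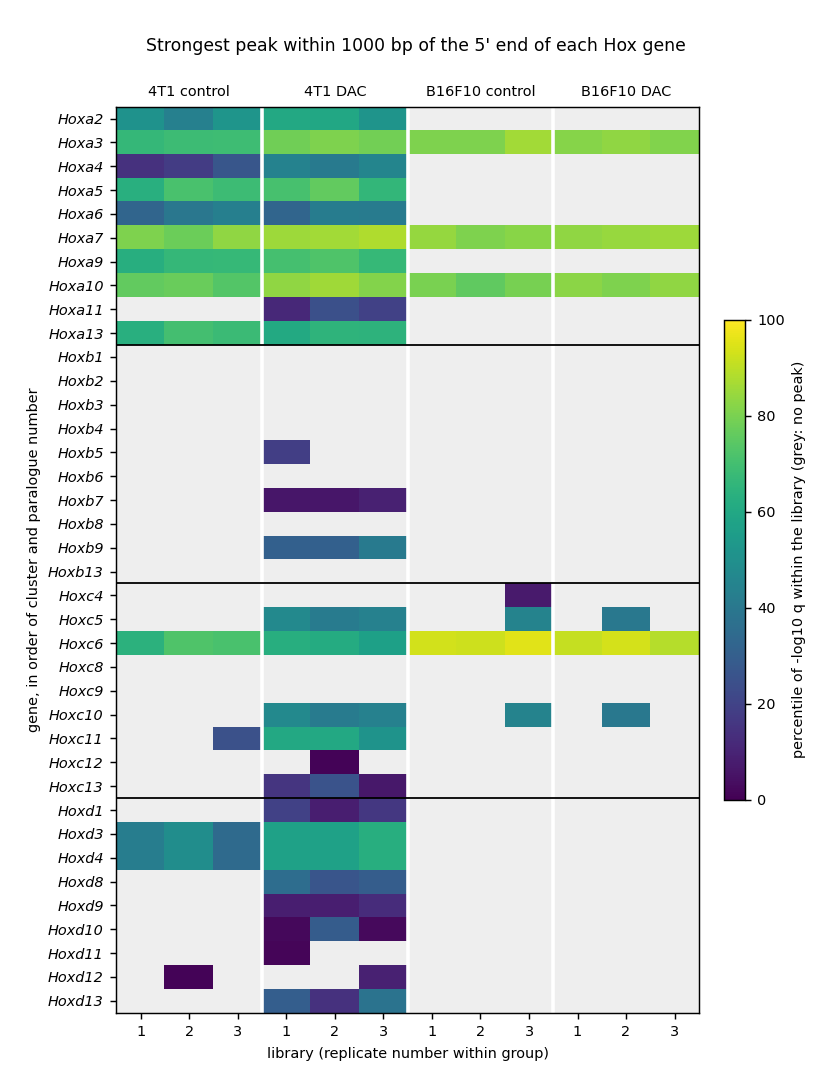
Each row is a Hox gene, each column a library, and the colour gives the percentile of −log10 q, within that library, of the strongest peak within 1000 bp of the gene's 5′ end; grey means no peak. In 4T1 the 3 DAC columns show coloured cells at 11 genes that are grey in the 3 control columns, while the B16F10 columns show 4 genes with peaks in all 6 libraries.

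Among the posterior HoxD genes, which pattern the limb and the genital bud, peaks after DAC were weak to moderate. Hoxd13, needed for the digits, had no peak in controls and peaks at percentiles 29.9, 14.2 and 38 in the 3 DAC libraries. Hoxd10 had none in controls and 2.21, 29.1 and 2.41 after DAC, so that its call rested on peaks near the foot of the list in replicates 1 and 3. Hoxd9, 1 of the paralogue group 9 genes that mammary gland development in pregnancy depends on, had 8.38, 8.39 and 12.5 after DAC and none before. The summits for Hoxd9 lay 24, 634 and 450 bp downstream of the 5′ end.

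The other HoxD calls lay at the anterior end and in the middle of the cluster. Hoxd8 had no control peak and 35.8, 26.2 and 29.5 in DAC libraries, the peaks covering the start of its coding sequence at chr2:74705008-74705970, where 15.1 CpGs per 100 bp were counted. Hoxd1, at the anterior end and known for a role in pain-sensing neurons, had none in controls and 19.5, 8.39 and 16.2 after DAC. Those 3 summits lay 48 to 54 bp upstream of the 5′ end. Hoxd11 and Hoxd12 were called in single libraries: Hoxd11 in DAC replicate 1 (1.39), and Hoxd12 in control replicate 2 (1) and DAC replicate 3 (8.99). All of the DAC values of these 7 HoxD genes were under the middle of their lists.

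In HoxC the strongest new peak stood over Hoxc10, a gene of the lumbar region and hind limb. Its percentiles were 47, 41.6 and 44.1 in the DAC libraries, with no control peak, and the authors' fold enrichment was 6.54, 5.46 and 6.25. Hoxc5 was called by the same peak, because a long transcript of Hoxc5 is annotated as starting beside Hoxc10, 46372 bp before its principal transcript. The principal start of Hoxc5 had a separate region, called at 21.5, 23.6 and 20.7 in DAC libraries and in no control. The 2 calls therefore share a peak at the annotated ends, and Hoxc5 was DAC-only at its principal start as well.

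Hoxc13, which controls hair keratin genes, had percentiles of 15.3, 25.6 and 6.63 after DAC and no control peak. Hoxc11 was near the rule without meeting it. It had a peak at 24.8 in control replicate 3 and at 60.5, 60.2 and 51.5 in the 3 DAC libraries, and without that control it joined the list, which then held 12 genes. Hoxc12 had a peak in DAC replicate 2 alone (0.782). Hoxc4, Hoxc8 and Hoxc9 had no promoter peak in any 4T1 library.

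HoxB and HoxA added 3 genes. Hoxb9, a paralogue of Hoxd9 and likewise needed for mammary development, had 30.7, 30.8 and 41 in DAC libraries and none in controls. Its summits lay 317 to 366 bp inside the gene, in the coding sequence printed above. Hoxb7 had 6.14, 6.14 and 8.99 after DAC, but the peak of replicate 3 lay upstream of the gene and those of the other replicates inside it, so no single region at Hoxb7 was called in all 3. Hoxb5 was called in DAC replicate 1 alone (18.5). Hoxa11, which patterns the forearm and kidney, had 11.6, 24.4 and 19.5 after DAC and none in controls. Those peaks were not at 1 place: relative to the 5′ end the summits lay upstream at −849 bp in replicates 1 and 3 and 128 bp inside the gene in replicate 2. The region at the 5′ end of Hoxa11 stood at 1.27, 24.4 and 12.9, near the foot of the list in replicate 1. The remaining HoxB members, Hoxb1, Hoxb2, Hoxb3, Hoxb4, Hoxb6, Hoxb8 and Hoxb13, had no promoter peak in any 4T1 library.

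The 11 new promoters were mostly weak ones. The lowest of the 3 DAC percentiles had a median of 11.6 over these members, from 2.21 (Hoxd10) to 41.6 (Hoxc10 and Hoxc5), and of 19.6 over all 926 DAC-only genes. With every 4T1 list held to its 89780 strongest peaks, Hoxb9, Hoxc5, Hoxc10 and Hoxd8 were DAC-only, 4 members (background 2.21%). At a −log10 q of at least 5 the count was 5 (background 3%). Among peaks with a fold enrichment of 5 or more it was 2, Hoxc5 and Hoxc10 with their shared peak (background 1.14%). The control-only shares over all genes under these settings, in the same order, were 0.834%, 0.447% and 1.13%. At that fold enrichment DAC-only and control-only promoters were thus about equally common over all genes. No member was control-only under any of the settings.

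The members that were called and those that were not differed in CpG density. The 11 DAC-only promoters had a median of 6.7 CpGs per 100 bp (4.4 to 8.7), the 10 called in no 4T1 library 3.1 (1 to 4.9), the 12 called in all 6 libraries 4.02 (2.65 to 9.7), and all genes 3.05. Of the 24 members with no control peak, the 11 made up 45.8%, compared with 9.93% DAC-only among all genes with none. All promoters were ranked by CpG density and divided into 5 equal bins. In the highest bin 8 of 8 such members were called, compared with 66.6% of all genes there that had no control peak. In the next bin the figures were 3 of 8 (37.5%) against 35.9%, in the middle bin 0 of 5 against 14.4%, and in the bin below 0 of 3 against 3.86%. Hence the members' shares were close to those of other genes of like CpG density in the 4th bin, above them in the 5th and below them in the 2nd and 3rd, on at most 8 genes a bin and with no test.

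**Figure D2:**
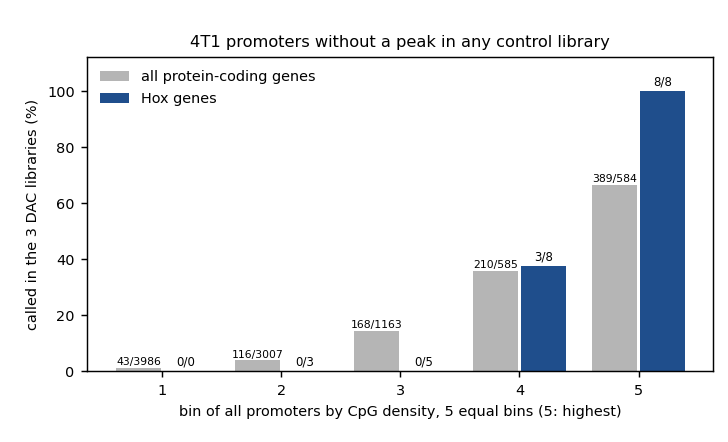
Bars give the percentage of 4T1 promoters without a control peak that were called in all 3 DAC libraries, by bin of CpG density, for all protein-coding genes (grey) and Hox genes (blue); the fractions above the bars are the counts. Both sets climb with CpG density, to 66.6% of all genes and 8 of 8 Hox genes in the highest bin.

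Over whole clusters, the bases covered by peaks were higher in every 4T1 DAC library than in every control in HoxB, HoxC and HoxD, but not in HoxA. In the HoxD span (chr2:74668310-74765142) controls had 1.81, 2.07 and 1.84 kb covered and DAC libraries 5.84, 5.55 and 5.87 kb, means of 1.91 ± 0.146 and 5.75 ± 0.175 kb (SD, n = 3) and a ratio of 3.02. In the HoxC span (chr15:102921103-103036852) the controls had 2.21, 2.54 and 2.6 kb and the DAC libraries 6.11, 5.63 and 5.98 kb, a ratio of 2.41. In the HoxB span (chr11:96194316-96368256) they had 3.74, 3.49 and 3.96 kb against 7.33, 6.66 and 6.14 kb, a ratio of 1.8. In these 3 clusters every DAC library lay above every control, as in 37.5% of all 100 kb windows of the genome in 4T1. The HoxA span (chr6:52162417-52260880) had 16.9, 18.4 and 17.1 kb in controls and 16.8, 17.7 and 16.4 kb after DAC, and the arms overlapped.

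The size of the difference placed the 3 clusters high among the windows. Per 100 kb, DAC minus control was 3.97 kb in HoxD, 2.98 kb in HoxC and 1.71 kb in HoxB, at percentiles 99.8, 99.2 and 95.1 of the 22105 windows, and −0.505 kb in HoxA, at percentile 11.4. Peaks per library numbered 4.33 ± 0.577 in controls and 15.3 ± 1.15 after DAC in HoxD, 4.67 ± 1.15 and 12.7 ± 1.15 in HoxC, 8 ± 0 and 15.3 ± 1.53 in HoxB, and 26.3 ± 1.53 and 28.7 ± 2.08 in HoxA. With equal numbers of peaks the DAC libraries stayed above every control in the first 3 clusters, with means of 3.6 ± 0.752 against 1.84 kb in HoxD, 4.58 ± 1.05 against 2.45 kb in HoxC and 4.92 ± 0.211 against 3.6 kb in HoxB. The share of windows and the percentiles given above hold for the main lists, and none is given for equal numbers of peaks. In HoxA the DAC libraries were below every control at equal numbers of peaks (15.7 against 17.5 kb), again without a share of windows. On the main lists 16.8% of windows had every DAC library below every control.

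Within a line, 3 against 3 libraries can reach p = 0.10 at the least when treatment labels are permuted (exact test, two-sided), and HoxB, HoxC and HoxD in 4T1 each gave that value (HoxA, p = 0.5). Over both lines the mean of DAC minus control was 1.94 kb in HoxC (exact permutation p = 0.02, adjusted p = 0.162), 1.48 kb in HoxB (p = 0.055, adjusted 0.212), 1.92 kb in HoxD (p = 0.06, adjusted 0.212) and −0.013 kb in HoxA (p = 0.99, adjusted 1). Adjustment was by Benjamini-Hochberg over the 4 spans and all windows, and no cluster passed 0.05. The test cannot go below 0.005, 1047 windows stood at that floor, and no window of the genome passed either. The adjusted p therefore says nothing particular to the clusters.

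**Figure D3:**
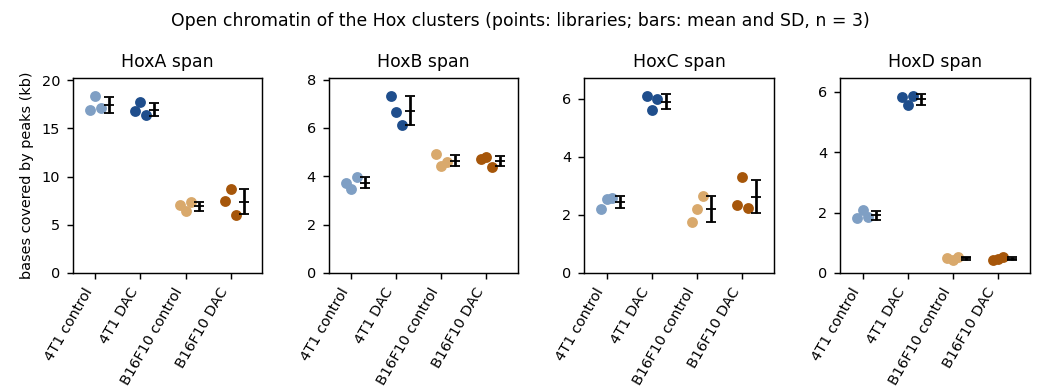
Bases covered by peaks in each cluster span, in kb, by group; points are libraries and the black bars the mean and SD of 3. In 4T1 the DAC libraries lie above the controls in HoxB, HoxC and HoxD, at 5.75 against 1.91 kb in HoxD, and overlap them in HoxA, while the B16F10 arms overlap in all 4 spans.

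Peaks of the 6 4T1 libraries merged into 100 regions in the 4 spans, of which 29 were called in all 6 libraries, 19 were DAC-only (19%, background 12%) and 2 were control-only (background 3.57%). HoxD held 7 of the 19, HoxC 5, HoxA 4 and HoxB 3. Of the 19, 13 lay within 1000 bp of the annotated 5′ end or principal transcript start of a listed gene. No genome share is given for that count. The 19 had a median of 7.82 CpGs per 100 bp against 3.05 over all 17630 DAC-only regions of the genome, and 15 of 19 (78.9%) were island-like, with GC above 50% and observed over expected CpG above 0.6, against 29.2%. None of the 19 was mostly repeat sequence, whereas 46.7% of the 17630 were.

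The 12 of the 19 with the highest rank included, beside the region at the principal start of Hoxc5 given above, 6 away from the annotated 5′ end of any DAC-only member. In HoxA, chr6:52225782-52226281 in the coding sequence of Hoxa9 (26.6, 20.8 and 24.1 in the DAC libraries) and chr6:52229634-52230051 in a Hoxa9 exon (27.9, 29.7 and 34.7) were new. In HoxB, chr11:96284203-96284873 in the coding sequence of Hoxb8 stood at 41.3, 40 and 40.4. In HoxC, chr15:102981762-102982230 in the coding sequence of Hoxc9 stood at 32.2, 29.1 and 42.3, and chr15:102943152-102943642, between genes, at 19.5, 21.6 and 18.4. In HoxD, chr2:74682007-74682564 in the coding sequence of Hoxd11 stood at 42.4, 45.5 and 27.7. That region covers the start of the principal transcript of Hoxd11, which is 2766 bp from the annotated 5′ end, so Hoxd11 counted as DAC-only when principal starts were used.

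The 2 control-only regions of 4T1 both lay in HoxA. The first, chr6:52170002-52170977 in the coding sequence of Hoxa3, stood at 14.5, 14.8 and 22.8 in the controls. The second, chr6:52237912-52238270 in an intron of Hoxa10, stood at 22.7, 13.2 and 7.35. Both were weak, and they held 4.92 and 0.557 CpGs per 100 bp.

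Motif letters were sought in the 200 bp around the strongest summit of each region. GGGCGG, the Sp1 box, was found on either strand in 9 of the 19 DAC-only regions (47.4%, against 19% of all such regions), and CCAAT, the NF-Y box, in 5 (26.3%, against 45.8%). TGANTCA, the AP-1 site, was in 1 (5.26%, against 18.1%) and TGATTNAT, a Hox-Pbx site, in 1 (against 2.5%). The CTCF consensus was in 0 of the 19 and in 0.766% of all such regions. GGGCGG holds a CpG, so its share moves with CpG density.

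**Figure D4:**
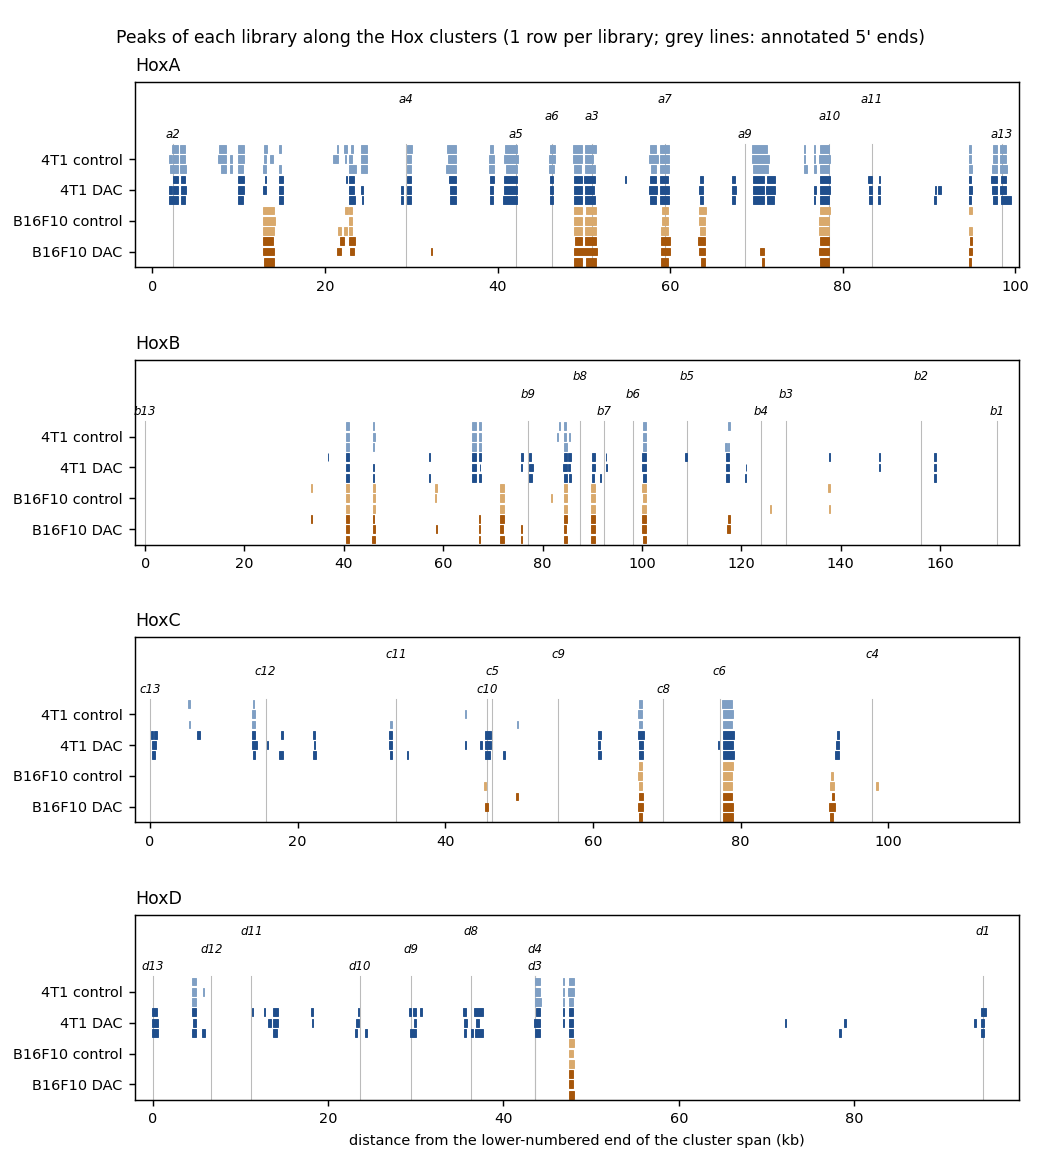
Peaks of each library along the 4 cluster spans, 1 row per library, with the distance in kb from the end of the span that has the lowest coordinate; grey lines mark annotated 5′ ends and carry the gene's letter and number. HoxD has 14 to 16 peaks in 4T1 DAC libraries, 4 or 5 in 4T1 controls and 1 in every B16F10 library.

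The control libraries of the lines differed at promoters of HoxA and HoxD. Among them, 8 members were called in 3 of 3 4T1 libraries and in 0 of 3 of B16F10: Hoxa2, Hoxa4, Hoxa5, Hoxa6, Hoxa9, Hoxa13, Hoxd3 and Hoxd4 (21.1%, against 8.03% of all genes). No member showed the reverse (background 1.94%). The 4T1 controls used here are those of the DAC comparison above. None of the 8 had a peak in any B16F10 DAC library either. They were selected for having none in B16F10 controls, and 0.228% of all promoters were DAC-only in B16F10. No share over all genes selected in the same way is given. B16F10 libraries had fewer peaks and a lower background density, and with 49622 peaks in every library the count was 3 (Hoxa5, Hoxa9 and Hoxa13), against 5.52% of all genes.

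Within those 8, Hoxa13, which patterns the digits and the urogenital tract, stood at 63.2, 70.3 and 68 in 4T1 controls and at 60.7, 64.9 and 64.5 after DAC. Hoxa5, needed for lung and airway, stood at 63.2, 71.1 and 68.7 in controls and at 70.9, 75.8 and 66.2 after DAC. Hoxa9, a driver of leukaemia and the third of the group 9 genes named here, stood at 62.6, 66.5 and 67.1 and at 70.5, 72.5 and 66.8. The Hoxa9 call rested on the edge of a peak whose summit lay upstream of the window, at −2102 to −1080 bp from the 5′ end, and Hoxa9 left the list, which then held 7, when the summit had to lie inside the window.

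Hoxa2, which specifies the second branchial arch, stood at 51.1, 43.7 and 52.3 in 4T1 controls and at 60.2, 59.8 and 51.8 after DAC. Hoxa6 stood at 32.6, 39.5 and 43 in controls and at 32.8, 42 and 41.7 after DAC. Hoxa4 had the weakest control peaks of the 8, at 14.3, 17.7 and 26.8, and stood at 44.5, 40.9 and 45.5 after DAC. Its promoter is among the densest in CpGs, with 8.65 per 100 bp. Hoxd3 and Hoxd4, whose annotated 5′ ends lie side by side, were called by the same peaks, at 42.5, 49 and 34.5 in controls and at 57.2, 57.1 and 62.6 after DAC. At principal transcript starts Hoxa9, Hoxd3 and Hoxd4 left the list, which then held 5, and Hoxa9 was then called in the controls of B16F10 and not in those of 4T1.

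In B16F10 few Hox promoters had peaks in either arm. Controls called 4, 4 and 7 of the 38 promoters and DAC libraries 4, 6 and 4. Called in 3 of 3 libraries were 4 members in each arm (10.5%, against 48.6% of all genes in controls and 48.8% after DAC), and they were the same 4: Hoxa3, Hoxa7, Hoxa10 and Hoxc6. No member was DAC-only (background 0.228%) or control-only (background 0.0684%). Hoxc6, known for expression in the thoracic region, stood at 93, 92.4 and 95.5 in controls and at 91.1, 93.5 and 88.9 after DAC. Hoxc5 and Hoxc10, by their shared peak, were called in control replicate 3 (44.8) and DAC replicate 2 (40), and Hoxc4 in control replicate 3 (7.31). The other 31 members had no peak in any B16F10 library.

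Covered bases in B16F10 overlapped between the arms in all 4 spans. The HoxD span held 1 peak in each of the 6 libraries, 0.506, 0.44 and 0.516 kb long in controls and 0.428, 0.456 and 0.532 kb after DAC. Means for control and DAC were 6.93 ± 0.462 and 7.41 ± 1.32 kb in HoxA, 4.64 ± 0.235 and 4.62 ± 0.214 kb in HoxB, and 2.21 ± 0.45 and 2.63 ± 0.582 kb in HoxC (SD, n = 3). Of 32 merged regions in the spans, 14 were called in all 6 libraries, 1 was DAC-only (3.12%, background 2.26%) and 0 were control-only (background 0.886%). That region, chr11:96261541-96261811 in an exon of the noncoding gene Gm53, stood at 42.1, 24.6 and 40.4 and was called in all 6 libraries of 4T1.

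The difference of the DAC effect between 4T1 and B16F10 was 3.86 kb in HoxD (exact permutation p = 0.045), 3.03 kb in HoxC (p = 0.085), 2.99 kb in HoxB (p = 0.05) and −0.969 kb in HoxA (p = 0.34). After adjustment over all windows the p was 0.232 in HoxB, HoxC and HoxD and 0.542 in HoxA. None passed 0.05, and no window of the genome did either. Labels were permuted within each line, which takes DAC to have no effect in either line. These p-values therefore do not test whether the effects in the lines were equal. Of the 19 DAC-only regions of 4T1, 2 had peaks in all 3 B16F10 controls, those in the coding sequences of Hoxa9 and Hoxb8. No such share over all DAC-only regions of the genome is given beside that count.

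A set of 9 of the 106 regions merged over both lines was called in all 12 libraries, against 22572 of 179635 in the genome. They lay at the annotated 5′ ends of Hoxa3, Hoxa7 and Hoxa10, beside those of Hoxc6 and Hoxb6, near Hoxc8 and Hoxb8, between genes far from Hoxb9, and at the noncoding Hoxd3os1. The last was the only HoxD peak of B16F10, at 71.3, 70.8 and 72.1 in controls and 79, 80.2 and 77.3 after DAC.

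The clusters also hold noncoding genes, including microRNAs of the miR-196 family, which target Hox transcripts. Of 16 noncoding genes matched to the annotation, 3 were DAC-only in 4T1 (background 3.62% of 11995 annotated noncoding genes of the same biotypes) and none was control-only (background 0.542%). Haglr shares its peaks with Hoxd1 (19.5, 8.39 and 16.2). Mir196b, beside Hoxa9, stood at 27.9, 29.7 and 34.7 after DAC. Mir615, inside Hoxc5, stood at 21.5, 23.6 and 20.7, by the region at the principal start of Hoxc5. Mir196a-1 in HoxB had no peak in any 4T1 library and stood at 74.5, 71.5 and 68 in B16F10 controls and 68.3, 64.6 and 67 after DAC. Windows were set at the 5′ ends of the hairpins, which are not transcription starts. The mature sequences from RefSeq (GRCm38.p6), with the seed at bases 2 to 8 in capitals, show the seed AGGUAGU that miR-196a and miR-196b share.
mmu-miR-196b-5p: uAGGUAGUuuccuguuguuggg
mmu-miR-196a-5p: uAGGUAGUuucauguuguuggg
mmu-miR-615-3p: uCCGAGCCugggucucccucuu

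Genes that act with or upstream of the Hox genes were largely open in every library. Over all genes, 55.5% of promoters were called in 3 of 3 4T1 controls and 59.3% after DAC. In B16F10 these shares were 48.6% and 48.8%. All 9 TALE homeodomain genes, the Meis, Pbx and Pknox cofactors of Hox proteins, were called in all 12. Of 31 Polycomb genes 29 were called in all 6 4T1 libraries. The other 2, Cbx7 (43.6, 38.7 and 43.1) and Phc2 (17.4, 19.6 and 16.2), were DAC-only, against 4.22% of all genes. In B16F10, 28 were called in all 6 and 3 in none. Of 14 genes of the MLL and trithorax group, which maintain Hox transcription, 11 were called in all 6 libraries of each line. Ash2l, a core subunit of the MLL complexes, was DAC-only in both lines at its annotated 5′ end. It stood at 78.4, 79.9 and 72.8 in 4T1 (background 4.22%) and at 43.6, 39.4 and 32.7 in B16F10 (background 0.228%). Dpy30 and Kdm6b of the same group had no peak in any library at theirs. Calls at principal transcript starts are not given for these lists, so a missing call need not mean a closed promoter.

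Related homeobox genes and the retinoic acid pathway, an inducer of Hox genes in the embryo, were examined in the same way. Of 8 ParaHox and Evx genes, Gsx1 (49, 46.5 and 40.2) and Cdx2 (31.4, 26.4 and 39) were DAC-only in 4T1 (background 4.22%). Another 4, Cdx1, Pdx1, Gsx2 and Evx2, had peaks in some 4T1 DAC libraries and in no control, none above percentile 22.8. No gene of that list was called in all 6 4T1 libraries, and none in any B16F10 library. Of 17 retinoic acid genes, 6 were called in every 4T1 library. Cyp26a1, which degrades retinoic acid (37.5, 38.6 and 37.8), and Aldh1a2, which makes it (13, 19.6 and 16.2), were DAC-only (background 4.22%). In B16F10 none of the 17 was DAC-only or control-only (background 0.228% and 0.0684%). Of 9 genes that flank the clusters, 7 were called in all 6 4T1 libraries and none was DAC-only or control-only (background 4.22% and 0.419%).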

How the data were processed

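Peak lists of 12 ATAC-seq libraries were analysed, 3 per line and arm. The submitters' processing notes name MultiQC, FastQC, Bowtie2, Picard, MACS2, DiffBind, ChIPseeker and mm10, without versions or options. The deposited fold enrichment (a ratio to background), −log10 p-value, −log10 q-value, score and summit are the authors' values for each peak within its own library. The lists end at a q of 0.05 and hold no read counts, so depth is known only through the background density, which was solved from fold enrichment and p as a Poisson tail. No counting interval could be given.

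Distinct intervals on 19 autosomes, X and Y were kept and merged per line where they overlapped by 1 bp. Genes were from GENCODE M21, sequences from GRCm38.p6. Covered bases were tested by permuting treatment labels within each line (exact, two-sided, 400 relabellings, smallest p 0.005; 20 within 1 line), checked on simulated data, with Benjamini-Hochberg adjustment over the 4 spans and 22105 windows of 100 kb (Python 3.11.15, numpy 2.4.6, scipy 1.17.1, pysam 0.24.0). Named were all members, other listed genes and regions called in 3 of 3 libraries of 1 arm and in 0 of 3 of the other (at most 6 genes per list and line, and 12 regions per line), and members called in controls of 1 line alone. Of 162 list symbols 4 had no match. The members and lists were chosen with earlier results of these data known. Some items that these rules cover are not reported here. No 2 libraries shared over 0.576% of identical intervals. Alternatives are given in the closing section.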

Additional observations from a re-analysis of the deposited data

Results flagged for a closer look

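The difference between the lines in the effect of DAC on the bases covered by peaks reached an unadjusted p of at most 0.05 in 2 cluster spans, and in neither after adjustment. No window of the genome passed adjustment either. The permutation takes DAC to have no effect in either line, so the p-values do not test for equal effects. The effect in 4T1 exceeded that in B16F10 by 2.99 kb in HoxB (exact permutation p = 0.05, adjusted p = 0.232), where all 3 4T1 DAC libraries lay above all controls and the B16F10 arms overlapped. It exceeded it by 3.86 kb in HoxD (exact permutation p = 0.045, adjusted p = 0.232), with the same pattern. The lines received different doses and their libraries differ in background density, and line, dose and depth cannot be told apart here.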

How the results depend on the processing

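The 11 Hox promoters that were DAC-only in 4T1 became 5 at a −log10 q of at least 5, 2 at a fold enrichment of at least 5 and 4 with equal numbers of peaks. The 8 called in 4T1 controls but not in B16F10 controls became 3 of 38 at that fold enrichment, a share close to the 7.17% of all genes. They became 3 with equal peaks (5.52% of all genes) and 5 at principal transcript starts. The 0 of the reverse became 1 at plus and minus 2000 bp (Hoxb7) and 1 at principal starts (Hoxa9). No share over all genes is given for principal starts or the wider window. DAC-only regions of the spans went from 19 in 4T1 to 12, 2 and 7 under the first 3 settings. In B16F10 they went from 1 to 0 at the higher fold enrichment. With 1 B16F10 library left out they numbered between 1 and 3 (3 without DAC replicate 1, 2 without DAC replicate 3). The genome shares of DAC-only regions given above hold for the main lists alone. None is given for these settings, so the region counts cannot be set against a background. Principal starts and the region alternatives were chosen after seeing the data. Of 17 alternatives for the difference of the spans over both lines, none gave an adjusted p under 0.152, and of those for the difference between the lines none under 0.231; the mean in HoxC ranged from 0.783 to 2.05 kb, in HoxB from 0.28 to 1.62 kb and in HoxD from 0.268 to 2.27 kb, and that in HoxA changed sign in 6. With labels exchanged within same-numbered libraries (a replicate block, 64 relabellings), the exact p was 0.0625 for 1.94 kb in HoxC, 0.156 for 1.48 kb in HoxB and for 1.92 kb in HoxD, and 1 in HoxA. Same-numbered libraries showed weak or no common deviation (correlations from −0.178 to 0.0943). With so few such pairs in a line, this cannot show whether the numbers pair the libraries.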
